A study of Rattus norvegicus with 6 samples.

Results

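Osteochondrogenic regulators and bone matrix genes were followed in the RNA-seq values of primary vascular smooth muscle cells (VSMCs). The genes were chosen by name, as Runx2, Sox9, Spp1, Sparc, Scx, Twist1, Twist2, Msx1, Msx2 and Clec11a. Of these 10 genes, 9 were found among the 13526 genes of the authors' table, and Msx2 was not analysed here. All 9 averaged 1 TPM (transcript abundance scaled to a common total per library, a level corrected for gene length) or more and entered the test.

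The cells were wild-type (WT) primary thoracic aortic smooth muscle cells of the rat, cultured, per the treatment text of the labels, for 5 days in osteogenic media (OM), which holds 10 mM β-glycerophosphate and 3.5 mM CaCl2. RNA was sequenced from 3 samples that also received 1 μM empagliflozin, a drug that blocks the glucose transporter SGLT2 (OM plus EMPA group), and from 3 samples that did not (OM group). The sources do not agree on the culture: the sample titles call the medium Pi, which the study elsewhere uses for inorganic phosphate as a separate treatment, and the study's text gives a shorter time. The labels' treatment text was followed here. Cells without OM were not analysed here, so each value compares 2 groups that both received OM. The cells came from the media of the aorta of male rats and were used after several passages, and the sources do not say whether replicates are from different cultures or animals. P-values therefore reflect the spread of these libraries alone, and that spread may be technical.

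During calcification of the artery, VSMCs can lose contractile proteins and take on genes of bone and cartilage cells. Runx2 is the transcription factor that commits cells to the osteoblast lineage, and Sox9 is the one that commits them to cartilage. Scx, Twist1 and Twist2 are basic helix-loop-helix (bHLH) factors: Scx marks tendon progenitors, and Twist proteins are known to hold back Runx2. Msx1 is a homeobox factor of the skull and teeth. Spp1 (osteopontin) and Sparc (osteonectin) are secreted proteins of bone matrix, and Clec11a (osteolectin) is a secreted growth factor that promotes bone formation.

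Among these genes the cartilage and tendon factors Sox9 and Scx and the secreted factor Clec11a were higher with empagliflozin, the matrix gene Spp1 and the factor Twist2 were lower, and the bone factor Runx2 did not pass the test. Sox9 was 1.62-fold and Scx 1.63-fold as high in the OM plus EMPA group, as ratios of mean TPM. Spp1 was at 0.519-fold and Twist2 at 0.607-fold of the OM group. Runx2 was at 0.967-fold. By limma on log2(TPM + 1), with calls made at an adjusted p up to 0.05, 3 of the 9 genes rose and 2 fell, against 6.92% of all 12564 tested genes called in either direction, 2.06% higher and 4.86% lower. These genes were chosen with earlier results of these data known.

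The bases upstream of 2 annotated starts of Runx2 and of the starts of Spp1 and Twist2 are shown because Runx2 did not pass the test while the other 2 genes fell, and because Runx2 has more than 1 start but a single value in the table. Sequences are from RefSeq (build GRCr8), 250 bases before each start, 5′ to 3′ on the gene's strand. Runx2 has an upstream start, with the window chr9:23664808-23665057, and a downstream start, with the window chr9:23742990-23743239, both on the plus strand. The Spp1 window is chr14:5619805-5620054 on the minus strand, and the Twist2 window is chr9:99821992-99822241 on the plus strand. Capitals mark CANNTG, the E-box that bHLH factors bind, and ACCACA, a form of the core that Runx factors bind, searched on both strands. Other forms of the Runx core, such as ACCGCA in the Spp1 window, were not searched and are not marked.
Runx2, upstream start: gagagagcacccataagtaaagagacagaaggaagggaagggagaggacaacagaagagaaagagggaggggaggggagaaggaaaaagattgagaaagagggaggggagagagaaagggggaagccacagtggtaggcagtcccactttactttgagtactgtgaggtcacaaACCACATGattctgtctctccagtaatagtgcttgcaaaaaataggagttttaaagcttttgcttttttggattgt
Runx2, downstream start: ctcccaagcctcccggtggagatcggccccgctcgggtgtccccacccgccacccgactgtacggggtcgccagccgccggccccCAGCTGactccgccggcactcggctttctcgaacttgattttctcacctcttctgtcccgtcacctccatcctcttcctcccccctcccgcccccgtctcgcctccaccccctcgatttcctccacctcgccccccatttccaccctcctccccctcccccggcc
Spp1: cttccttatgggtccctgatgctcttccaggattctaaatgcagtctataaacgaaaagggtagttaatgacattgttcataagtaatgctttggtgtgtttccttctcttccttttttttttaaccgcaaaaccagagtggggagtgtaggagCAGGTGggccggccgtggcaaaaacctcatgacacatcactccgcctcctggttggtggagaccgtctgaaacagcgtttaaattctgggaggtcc
Twist2: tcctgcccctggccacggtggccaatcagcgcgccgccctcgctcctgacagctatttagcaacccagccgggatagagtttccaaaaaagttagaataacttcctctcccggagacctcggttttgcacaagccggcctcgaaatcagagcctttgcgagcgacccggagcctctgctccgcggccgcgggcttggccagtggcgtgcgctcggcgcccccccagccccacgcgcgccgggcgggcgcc

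In the upstream Runx2 window ACCACA begins at position -76 from the start and overlaps an E-box, CACATG, at position -74. The downstream window holds 1 E-box and no ACCACA, and has 70% G and C against 45.6% upstream. Spp1 has 1 E-box, and also 1 match of ATTGTT, a core that Sox factors bind. The Twist2 window holds none of these and 67.2% G and C. Of 33469 rat windows of the same length, 65.5% hold an E-box, 14.5% ACCACA and 10.3% ATTGTT, so these matches describe the letters only. Windows were found for 7 of the 9 genes, while Sox9 and Scx had no entry. Of the windows not printed, that of Sparc holds 3 E-boxes and 1 ACCACA, and that of Clec11a 1 E-box. Those of Twist1 and Msx1 hold no E-box.

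The bone factor Runx2 did not separate the groups. It was at 12.3, 11.3 and 12.5 TPM in the OM plus EMPA libraries and at 11.3, 14.0 and 12.0 TPM in the OM libraries. The ranges overlap almost wholly, with OM replicate 2 the highest and OM plus EMPA replicate 2 (11.25 TPM) the lowest of all 6, just below OM replicate 1 (11.26 TPM). The log2 fold change was -0.04 (SE 0.09, adjusted p = 0.82 from limma), with a 95% interval of -0.25 to 0.17, and its sign turned when the libraries were scaled by the median ratio of genes (0.01). The authors' table gives Runx2 on chromosome 9 from 16167482 to 16492167 with 6 transcripts, 1 of them assembled from the reads, so a shift between its transcripts would not show in this value. Supt3h, on the opposite strand, overlaps it and was at 6.30 TPM with empagliflozin and 5.43 TPM without (log2 fold change 0.19, adjusted p = 0.484 from limma). The library kit in the labels does not mark strand, so reads of overlapping genes cannot be told apart.

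Bmp2, a growth factor that induces Runx2, was at 16.5, 8.62 and 16.5 TPM with empagliflozin and at 31.7, 22.7 and 37.6 TPM in the OM group. All 3 libraries with empagliflozin lie below the OM libraries. Its log2 fold change was -1.12 (SE 0.26, adjusted p = 0.0443 from limma). The adjusted p was 0.0604 to 0.127 from limma without any 1 of OM plus EMPA replicates 1, 2 and 3 and OM replicates 1 and 3, 0.0529 with median-ratio scaling and 0.0511 with upper-quartile scaling. In a fit without a variance trend it was 0.0858 from limma.

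Calls were counted for 7 bone and cartilage terms of the annotation in the authors' table, which share genes and were picked after the values were seen. Of all tested genes, 2.06% were called higher and 4.86% lower. Ossification, which holds Sox9, Sparc, Clec11a, Spp1 and Twist1, had 8 higher and 4 lower of 61 tested genes. Osteoblast differentiation, with Runx2, Spp1 and both Twist genes, had 1 higher and 8 lower of 59, and its positive regulation, with Runx2, had 1 higher and 9 lower of 50. Negative regulation of osteoblast differentiation, with Sox9 and both Twist genes, had 5 higher and 4 lower of 39. Bone mineralization, with Spp1, had 1 higher and 5 lower of 33. Chondrocyte differentiation, with Sox9, Scx and Runx2, had 4 higher and 1 lower of 30, and cartilage development, with Sox9, had 2 higher and 3 lower of 48. The counts include the genes described.

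The cartilage factor Sox9 was at 18.8, 20.1 and 20.3 TPM in the OM plus EMPA libraries and at 11.4, 13.2 and 12.1 TPM in the OM libraries. The highest OM library lies well below the lowest OM plus EMPA library. Sox9 rose by 0.65 on the log2 scale (SE 0.07, 95% interval 0.48 to 0.82, adjusted p = 0.00451 from limma), and with any 1 library left out the adjusted p was 0.00706 to 0.0229 from limma. It lies on chromosome 10 from 97806485 to 97811994 in the authors' table.

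Scx, the tendon factor, was at 15.5, 16.8 and 15.3 TPM with empagliflozin and at 8.46, 11.4 and 9.44 TPM in the OM group. Again the groups did not overlap, with OM replicate 2 nearest to the treated libraries. Scx rose by 0.66 (SE 0.10, 95% interval 0.42 to 0.90, adjusted p = 0.0126 from limma). The adjusted p was 0.055 from limma without OM plus EMPA replicate 2. Scx lies inside the span of Bop1, a ribosome biogenesis gene on the other strand, which was at 28.7 against 32.0 TPM with a log2 fold change of -0.15 (adjusted p = 0.131 from limma).

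The remaining bHLH factors were Twist1 and Twist2, a pair of close relatives. Twist2 was at 22.4, 16.6 and 22.7 TPM in the OM plus EMPA libraries and at 38.1, 32.1 and 31.5 TPM in the OM libraries. Twist1 was at 16.9, 17.7 and 18.0 TPM against 17.7, 18.2 and 17.0 TPM. The Twist2 groups lie apart, whereas Twist1 covers nearly the same narrow range in both. Twist2 fell by 0.70 (SE 0.13, 95% interval -1.0 to -0.41, adjusted p = 0.0198 from limma), which became 0.0648 without OM replicate 1. Twist1 had a log2 fold change of -0.01 (SE 0.06, 95% interval -0.15 to 0.13, adjusted p = 0.946 from limma), and 0.05 under median-ratio scaling. The table's annotation lists both under negative regulation of osteoblast differentiation, together with Sox9. The sources used here do not say how reads that fit both Twist genes were counted.

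Msx1 was at 7.26, 7.52 and 7.07 TPM with empagliflozin and at 5.96, 7.12 and 6.09 TPM in the OM group. OM replicate 2 lies within the range of the treated libraries and the other OM libraries below it. The log2 fold change was 0.17 (SE 0.09, 95% interval -0.04 to 0.38, adjusted p = 0.302 from limma).

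The bone matrix genes Spp1 and Sparc were the most abundant members by far, and only Spp1 passed the test. Spp1 was at 1288, 914 and 1557 TPM in the OM plus EMPA libraries and at 2546, 1940 and 2750.2 TPM in the OM libraries. The values are more scattered than those of the transcription factors, and replicate 2 is the lowest of each group, but the groups do not overlap. Spp1 fell by 0.96 (SE 0.20, 95% interval -1.42 to -0.50, adjusted p = 0.031 from limma). The adjusted p from limma was 0.0761 and 0.0624 when replicate 1 or 2 of the OM plus EMPA group was left out and 0.0998 and 0.0979 when replicate 1 or 3 of the OM group was, with the log2 fold change between -1.0 and -0.75. In a fit without a variance trend the adjusted p was 0.0668 from limma. Spp1 lies on chromosome 14 from 5308872 to 5315162.

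Sparc was at 7261, 7638 and 7458 TPM with empagliflozin and at 6289, 6861 and 6515 TPM in the OM group. It is the seventh most abundant gene of the whole table. Each treated library lies above each OM library, but the difference is small, with a log2 fold change of 0.19 (SE 0.06, 95% interval 0.04 to 0.33, adjusted p = 0.129 from limma). Sparc overlaps an assembled locus on the opposite strand that averaged 50.04 TPM with empagliflozin and 27.4 TPM without and did not pass the test (adjusted p = 0.0986 from limma). Counting Sparc, the groups did not overlap for 4 members that were higher and 2 that were lower, against 7.85% and 22.5% of all tested genes, or 30.4% in either direction.

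Clec11a, the secreted bone growth factor, was the least abundant member. It was at 3.18, 4.49 and 4.43 TPM in the OM plus EMPA libraries and at 1.59, 2.59 and 2.10 TPM in the OM libraries. The groups do not overlap, although OM plus EMPA replicate 1 and OM replicate 2 are less than 1 TPM apart. Clec11a rose by 0.70 (SE 0.16, 95% interval 0.32 to 1.09, adjusted p = 0.0454 from limma), a scale that understates the change of a gene this low, and the ratio of means was 1.93. The adjusted p was 0.114 to 0.148 from limma without any 1 of OM plus EMPA replicates 2 and 3 and OM replicates 1 and 3. In a fit without a variance trend it was 0.0616 from limma.

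**Figure D1:**
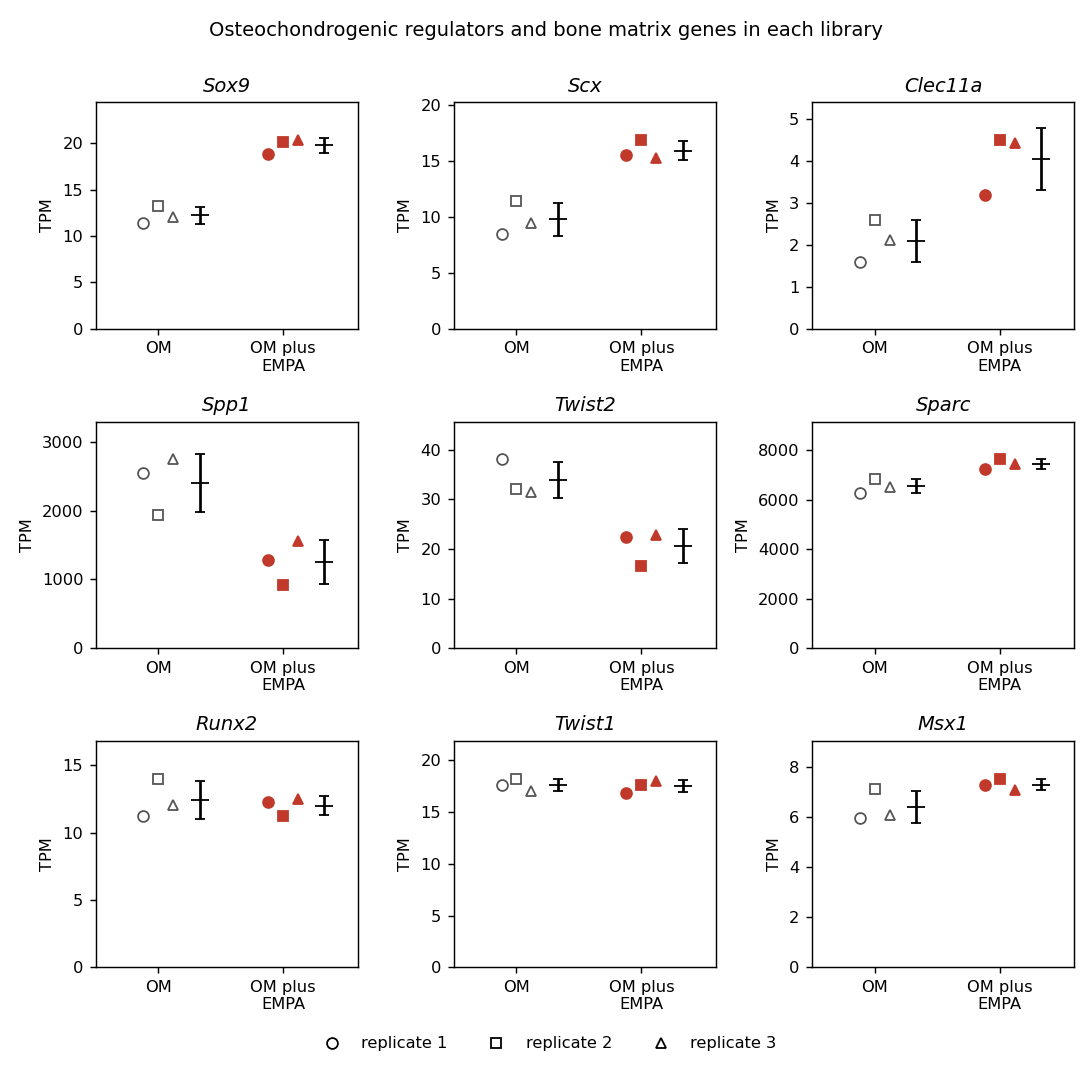
TPM of the 9 genes in each of the 6 libraries, with open grey symbols for OM, filled red symbols for OM plus EMPA, a symbol shape for each replicate number, and the mean with its SD (n = 3) to the right of the points. Sox9, Scx, Clec11a and Sparc are higher and Spp1 and Twist2 lower in every treated library, while the groups of Runx2, Twist1 and Msx1 overlap. Sparc did not pass the test.

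**Figure D2:**
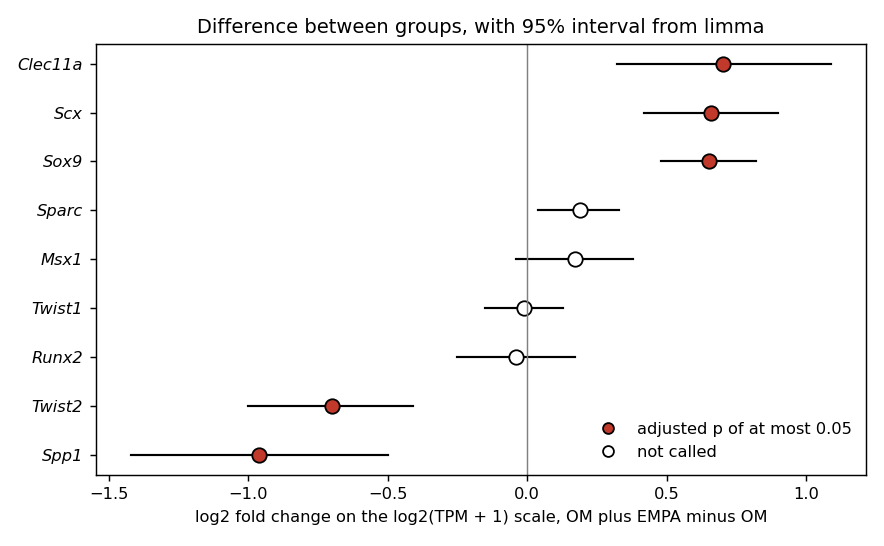
Difference of each gene in log2(TPM + 1), the OM plus EMPA group less the OM group, as a point with its 95% interval from limma. Filled points passed an adjusted p of 0.05, and the 5 of them lie between -0.96 for Spp1 and 0.70 for Clec11a.

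TPM are corrected for transcript length, so levels of different genes can be set side by side roughly. Reads of overlapping genes and reads that fit both Twist genes limit this. In the OM group the order of mean TPM was Sparc (6555), Spp1 (2412), Twist2 (33.9), Twist1 (17.6), Runx2 (12.4), Sox9 (12.2), Scx (9.75), Msx1 (6.39) and Clec11a (2.09). Only Runx2 and Sox9 had overlapping values among neighbours in this order. In the OM plus EMPA group Sox9 (19.8) stood next to Twist2 (20.6), with overlapping values, and above Twist1 (17.5), Scx (15.9) and Runx2 (12.0). By mean TPM, Sparc, Spp1, Twist2, Msx1 and Clec11a kept their places. Within groups the genes differed in scatter: the SD was 3.29% and 3.44% of the mean for Twist1 and 25.8% and 17.5% for Spp1, in the OM plus EMPA and OM groups. OM replicate 2 was the highest OM library for 7 of the 9 genes.

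The ratio of a pair of genes within a library does not depend on how the libraries are scaled. The pairs were chosen after the values were seen, so they are given without a test. The ratio of Sox9 to Runx2 was 1.53, 1.79 and 1.62 with empagliflozin and 1.01, 0.943 and 1.00 in the OM group. TPM of the cartilage factor and the bone factor were thus nearly equal in each OM library and unequal in each treated library. The ratio of Scx to Runx2 was 1.26, 1.50 and 1.22 against 0.751, 0.811 and 0.784. Twist2 to Twist1 gave 1.33, 0.938 and 1.26 against 2.16, 1.76 and 1.85. For Spp1 to Sparc the ratio was 0.177, 0.12 and 0.209 against 0.405, 0.283 and 0.422. None of these 4 ratios overlapped between the groups, but the first gene of each pair did not overlap on its own either.

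**Figure D3:**
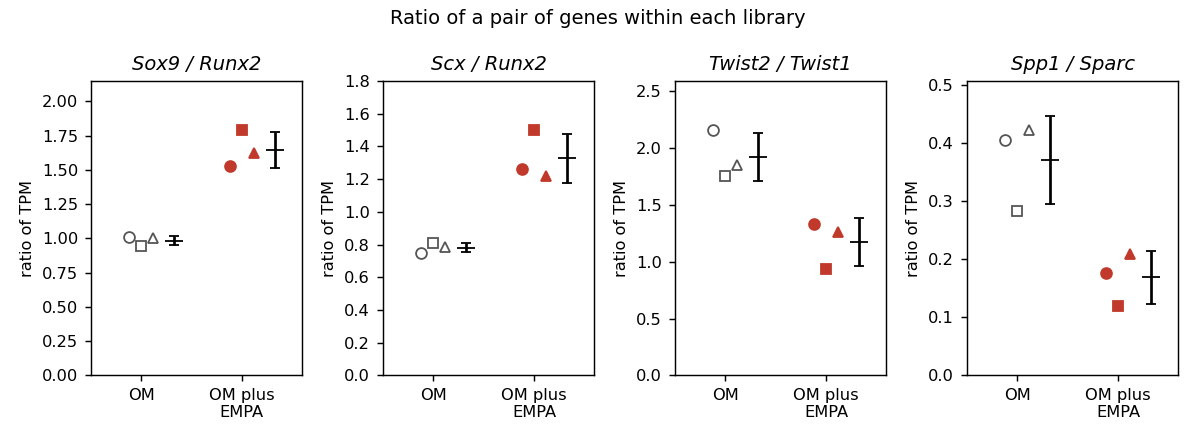
Ratio of the TPM of a pair of genes in each library, with open grey symbols for OM, filled red symbols for OM plus EMPA, symbol shapes for replicate numbers as in the plot of TPM by library, and the mean with its SD (n = 3). Sox9 to Runx2 averages 1.65 with empagliflozin and 0.986 without, and Twist2 to Twist1 averages 1.18 and 1.92.

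In a wider list of bone genes, 2 passed the test, both lower with empagliflozin. Of the 36 genes of osteoblasts and bone matrix in this list, 22 were listed and 19 tested. By limma 0 rose and 2 fell, Bmp2 and Postn, while at an unadjusted p under 0.05 from limma 4 were higher and 5 lower. Over all tested genes, 2.06% were called higher and 4.86% lower, and 6.42% and 17.6% were so at an unadjusted p under 0.05. Postn, the matrix protein periostin, was at 65.2, 51.1 and 65.2 TPM against 86.6, 79.9 and 93.8 TPM, so that the groups lie apart. Periostin transcripts fell by 0.52 (SE 0.10, 95% interval -0.76 to -0.28, adjusted p = 0.027 from limma, 0.0799 without OM replicate 1 and 0.0861 without OM replicate 3). Runx1, a relative of Runx2, had a log2 fold change of 0.23 (adjusted p = 0.0885 from limma) and passed the test under median-ratio scaling (adjusted p = 0.0418 from limma). Enpp1, which makes the mineral inhibitor pyrophosphate, had one of -0.25 (adjusted p = 0.0969 from limma). The median log2 fold change of the list was -0.05, as over all tested genes.

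In the wider lists of cartilage and tendon genes all calls were higher with empagliflozin. This holds for these lists only, since the annotation term cartilage development had 2 higher and 3 lower of 48 tested genes. Of 13 tested genes of cartilage, Col11a1 and Fmod rose and 0 fell by limma, with a median of 0.19 and, at an unadjusted p under 0.05, 6 higher and 1 lower, against 2.06% called higher and 6.42% higher and 17.6% lower unadjusted over all genes. Of 8 tested genes of tendon, Col14a1, Tnc, Col12a1 and Fmod, which is in both lists, rose and 0 fell by limma, with a median of 0.33 and, at an unadjusted p under 0.05, 4 higher and 2 lower, against the same shares. The median of the 9 genes described was 0.17. Col14a1, a fibril-associated collagen, was at 111, 128 and 106 TPM with empagliflozin and at 59.0, 70.8 and 52.3 TPM in the OM group, and rose by 0.91 (SE 0.11, adjusted p = 0.00552 from limma). Col11a1, a chain of cartilage fibrils, rose by 0.74 (SE 0.11, adjusted p = 0.0108 from limma). Both passed the test with any 1 library left out. Fmod, fibromodulin, rose by 0.34, Tnc, tenascin C, by 0.33 and Col12a1 by 0.41, with log2 fold changes of 0.31 to 0.34, 0.28 to 0.34 and 0.32 to 0.45 in the leave-outs in which the call was lost. The adjusted p of Fmod from limma was 0.0624 and 0.0544 when replicate 2 or 3 of the OM plus EMPA group was left out and 0.061 without OM replicate 3. That of Tnc was 0.0908 to 0.101 from limma when replicate 2 or 3 of the OM plus EMPA group or replicate 1 or 3 of the OM group was left out, and that of Col12a1 was 0.0711 to 0.13 from limma without any 1 library other than OM replicate 2. Matn2 and Prg4, matrix genes of cartilage and joint, had log2 fold changes of 0.49 (adjusted p = 0.0515 from limma) and -0.44 (adjusted p = 0.0564 from limma).

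bHLH factors such as Twist and Scx pair with E proteins, and Id proteins bind E proteins without binding DNA. Of 13 tested genes of this list, Id3 and Hey2 rose and Tcf12 fell, against 6.92% of all tested genes called in either direction, and at an unadjusted p under 0.05 from limma 4 were higher and 2 lower, against 6.42% and 17.6%. Id3 was at 641, 662 and 819 TPM with empagliflozin and at 437, 503 and 522 TPM in the OM group, and rose by 0.53 (SE 0.10, adjusted p = 0.0264 from limma, 0.0523 to 0.0767 without OM plus EMPA replicate 2 or any 1 OM replicate). Hey2, a Notch target, rose by 0.55 (SE 0.10, adjusted p = 0.0227 from limma, 0.0549 to 0.075 without any 1 library other than OM replicate 2). Tcf12, an E protein, fell by 0.22 (SE 0.04, adjusted p = 0.031 from limma, 0.0678 to 0.106 with any 1 library left out and 0.0859 with median-ratio scaling). The E protein gene Tcf4 had the same log2 fold change of -0.22 (adjusted p = 0.065 from limma).

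**Figure D4:**
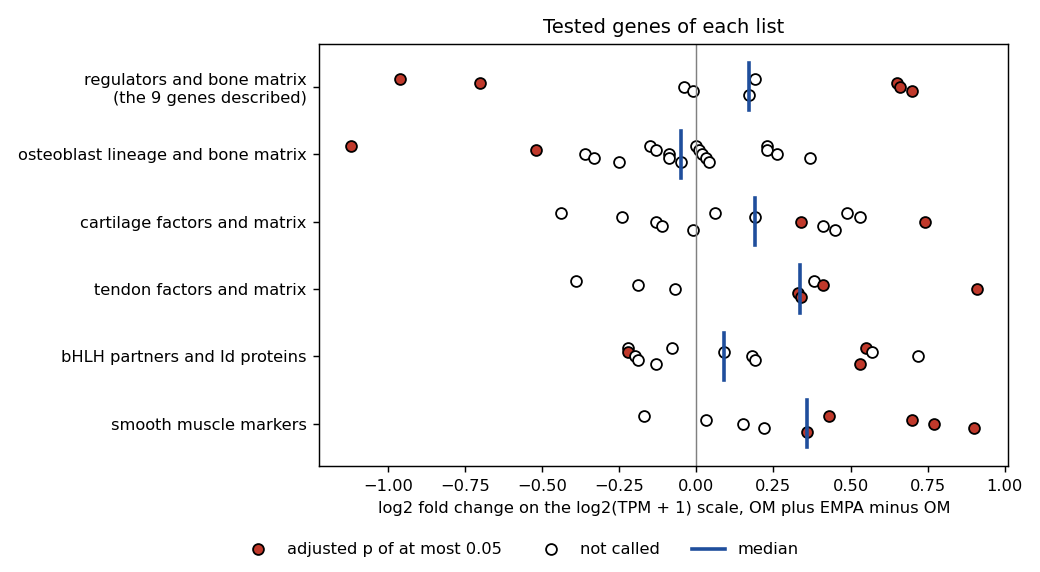
Difference in log2(TPM + 1), the OM plus EMPA group less the OM group, for the tested genes of 6 lists, with filled points for those that passed the test and a blue bar at the median. The median is 0.17 for the 9 genes described, -0.05 for the bone list, 0.33 for the tendon list and 0.36 for the smooth muscle markers.

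Over all tested genes, 259 rose and 611 fell, and with median-ratio scaling 394 rose and 380 fell, while the same 3 and 2 of the genes described passed. Between 12473 and 12578 genes reached 1 TPM in a library, and transcripts of the mitochondrial genome took 10.3 to 10.9% of TPM with empagliflozin and 8.0 to 9.69% without. Genes that define mature cartilage cells were low or not listed. Of 7 chondrocyte markers Matn3 alone was listed, at 0.38 to 1.02 TPM in the OM plus EMPA group and 0.40 to 0.87 TPM in the OM group. The others, among them Col2a1 and Acan, were not analysed here, nor were the bone cell markers Bglap, Ibsp and Sp7. Of the smooth muscle markers, 5 of 9 tested rose and 0 fell by limma, against 2.06% of all genes called higher, and 7 were higher and 0 lower at an unadjusted p under 0.05, against 6.42% and 17.6%, and the 10 listed summed to 2850 to 3340 TPM, mostly Tagln, against 2030 to 2500 TPM, with Myocd the lowest. Fibroblast markers, 6 of 6 listed and mostly Dcn, summed to 4770 to 5510 against 6160 to 6990 TPM, with Dpt the lowest. Of 5 tested, Pdgfra and Dcn were lower (adjusted p = 0.0488 and 0.0411 from limma). Col14a1 was higher (adjusted p = 0.00552 from limma). Leukocyte markers, 3 of 10 listed and mostly Fcer1g, summed to 145 to 152 against 153 to 162 TPM. Of these 3, all tested, Cd68, the lowest, was lower (adjusted p = 0.0378 from limma). Over all tested genes, 4.86% were called lower and 2.06% higher. None of 8 endothelial markers was listed. The part of these cell types in the results was not tested, and fewer cells of a type cannot be told apart from less RNA per cell.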

How the data were processed

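RNA-seq values of 6 libraries of rat VSMCs, 3 per group, were used. Values were used as deposited, in TPM computed by the authors for 13526 genes, a unit that keeps no depth, so depth and the precision it gives are unknown. Tools listed by the submitters, with no role given, were fastp, HISAT2 2.0.5, RSEM and DESeq2. No source used here names the build of the table's coordinates. The table also holds the authors' fold changes and p-values, and a second table holds genes picked by them. None of these were used.

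Genes averaging 1 TPM or more (12564) were fitted with limma 3.58.1 (R 4.3.3) on log2(TPM + 1), with group as the only term and a variance trend. Calls were made at a Benjamini-Hochberg adjusted p of 0.05 over all tested genes. The pipeline was tested on simulated data.

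The genes described and the lists were chosen with earlier results of these data known. Text names all members, Bmp2, the called genes of 4 wider lists or, if fewer than 4, those with the smallest p up to 4, and the highest and lowest marker of each marker list. The summed level of the osteoblast marker list is not reported here. No source used here says whether replicate numbers pair the libraries, and the main fit did not pair them. Alternatives covered the pseudocount, filters, scaling, variance trend, threshold, replicate block and each library left out. Sequences are from RefSeq tables. Python 3.11.15 with pandas 2.3.3, numpy 2.4.6 and matplotlib 3.10.9 was used.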

Additional observations from a re-analysis of the deposited data

How the results depend on the processing

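Whether replicate numbers pair the libraries is not known, and the main fit did not pair them. Deviations of same-numbered libraries from their group means correlated at 0.10, 0.16 and 0.06. Each library correlated best with its own number, a hint from the data, not the design. With the replicate block, 449 genes rose and 951 fell, against 259 and 611 without it. The block gave 2 higher and 5 lower genes in the bone list, 5 higher in the cartilage list and 4 higher in the bHLH list, and left the calls of the 9 genes described as they were. Over all genes, median-ratio scaling gave 394 higher and 380 lower, upper-quartile scaling 403 and 382, no variance trend 154 and 366, a threshold of 0.01 gave 35 and 159, and one of 0.1 gave 460 and 1090. With 1 library fewer, 80 to 216 genes were higher and 245 to 438 lower. Of the 9 genes, 1 to 3 were then higher, 1 without OM plus EMPA replicate 2, and 0 to 2 lower, 0 without OM replicate 1. At 0.01, 1 was higher and 0 lower, and without a variance trend 1 was lower. Their median lay between 0.13 and 0.22. In the bone list, either scaling gave 1 higher and 1 lower, a threshold of 0.1 gave 1 higher, no trend and 0.01 gave 0 lower, and leaving out 1 library 0 to 2 lower. In the cartilage list, 0.01 gave 0 higher, 0.1 gave 6 higher and 1 lower, no filter, 1 TPM in each library and no trend each gave 1 lower, and leaving out 1 library 1 to 4 higher. In the tendon list, no trend gave 2 higher, 0.01 gave 1, and leaving out 1 library 1 to 4. In the bHLH list, no trend gave 1 higher, 0.01 gave 0 and 0.1 gave 4, leaving out 1 library gave 0 to 1 higher and 0 lower, either scaling, scaling without mitochondrially encoded genes, no trend and 0.01 gave 0 lower, and 0.1 gave 2. All these counts are from limma. Without a variance trend the calls of Spp1, Clec11a, Bmp2, Postn, Tnc, Col12a1, Id3 and Tcf12 were lost (adjusted p = 0.0614 to 0.0858 from limma). The sign of Runx2 turned with median-ratio (0.01) and upper-quartile scaling (0.02) and when replicate 2 of the OM plus EMPA group (0.00) or of the OM group (0.04) was left out, with a range of -0.10 to 0.04 over the libraries left out. That of Twist1 turned with the same scalings (0.05 and 0.05), scaling without mitochondrially encoded genes (0.02), and when replicate 1 of the OM plus EMPA group (0.02) or replicate 2 of the OM group (0.01) was left out, with a range of -0.03 to 0.02. Of 384 alternative values of the 24 named genes, 289 kept direction and side of the threshold, 70 no longer passed, 16 newly passed and 9 reversed. The causes were not tested.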
